A study of Mus musculus with 6 samples.

Results

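The miR-143 and miR-145 cluster consists of a pair of hairpin precursors, mir-143 and mir-145a, each of which gives a mature miRNA from its 5′ arm (5p) and another from its 3′ arm (3p). Its members were taken as the rows named mmu-miR-143-3p, mmu-miR-143-5p, mmu-miR-145a-5p and mmu-miR-145a-3p, which are 4 of the 1915 mature names in the table, and each had 1 row. Small RNA had been sequenced from endothelial progenitor cells (EPCs), cells grown in culture out of the bone marrow of male C57BL/6J mice. The mice were bought when 11 weeks old and breathed either concentrated ambient fine particulate matter (CAP, 3 libraries) or HEPA-filtered air (Air, 3 libraries) for 6 h per day on 30 consecutive days. Mice of a group shared 1 cage, and an effect of the cage cannot be told apart from that of the exposure. The culture lasted 12 days by the labels, and the methods state another time.

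Both hairpins are cut from a shared primary transcript, whose host gene is the long noncoding RNA Carmn. The cluster is best known in smooth muscle cells, pericytes and fibroblasts, where serum response factor with myocardin, and TGF-β signalling, drive its transcription and where it favours the contractile over the proliferative state. Most of the reads of mir-143 normally come from the 3p arm and most of those of mir-145a from the 5p arm, and the other arm of each hairpin is usually degraded after the hairpin is opened. On GRCm38, the assembly that mm10 denotes, RefSeq places Mir145a on chromosome 18 from 61647825 to 61647894 and Mir143 from 61649196 to 61649258. The hairpins lie 1301 bases apart on the minus strand, and both fall within the RefSeq span of Carmn (61645878 to 61665538).

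Column totals were 19978586 to 25532775 counts, or 13831209 to 18107578 with 1 row kept per mature name. Levels are given in CPM, counts relative to a library size corrected by TMM, a scaling that assumes that most miRNAs do not differ. Neither the endothelial nor the blood-cell markers were absent: miR-126a-3p, abundant in endothelium, was at 1516 to 4005 CPM in air and 749 to 2760 CPM in CAP libraries, and miR-223-3p, a myeloid miRNA, was at 24739 to 31994 CPM and 27966 to 32064 CPM. CAP replicate 1 stood apart through the liver miRNA miR-122-5p, at 24731 CPM against 75.0 to 277 CPM in the other 5 libraries, and values for the members and lists are also given without it. In such cultures a smaller share of cells that express the cluster and less RNA per cell cannot be told apart.

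The comparison of CAP with air asked whether the arms of the cluster differed between the groups, and whether they did so together. The levels of both mir-143 arms overlapped between the groups. The major arm of mir-145a, miR-145a-5p, was lower in every CAP library than in any air library, at 0.774 times the air level, while its minor arm, miR-145a-3p, was at 1.09 times the air level and overlapped. The ratio of mir-145a to mir-143 was therefore lower, and the share of the 3p arm within mir-145a higher, in all 3 CAP libraries than in all 3 air libraries. None of these differences passed its threshold in the main fits.

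mmu-miR-143-3p, the major product of the cluster, was the miRNA of rank 16 by mean level among the 677 tested. It was at 21681, 20007 and 23132 CPM in air replicates 1, 2 and 3 and at 17415, 19804 and 22751 CPM in CAP replicates 1, 2 and 3. CAP replicate 1 was the lowest library and CAP replicate 3 lay within the range of the air group. The means were 21607 ± 1564 CPM in air and 19990.3 ± 2673 CPM in CAP (SD, n = 3). The log2 fold change was −0.11 with a standard error of 0.11 (edgeR quasi-likelihood test, Benjamini–Hochberg adjusted p = 0.574), with a 95% interval from −0.37 to 0.15.

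mmu-miR-143-5p, the minor arm of the same hairpin, had rank 99. It was at 471, 445 and 487 CPM in the air libraries and at 384, 431 and 478 CPM in the CAP libraries, in the order of their replicate numbers. Here too CAP replicate 1 was lowest, and the groups overlapped. Its log2 fold change of −0.12 (standard error 0.11, edgeR adjusted p = 0.563) was close to that of miR-143-3p. Upper-quartile scaling, under which the median over all tested miRNAs was 0.15 in place of 0.00, turned the sign of both arms, to 0.035 for miR-143-3p and 0.029 for miR-143-5p.

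mmu-miR-145a-5p, known in smooth muscle for repressing Klf4 and Klf5, transcription factors of the proliferative state, had rank 63. It was at 1955, 1927 and 2142 CPM in air replicates 1, 2 and 3. In CAP replicates 1, 2 and 3 it was at 1384, 1533 and 1744 CPM, so that the highest CAP library stood below the lowest air library. The means were 2008 ± 117 CPM in air and 1553 ± 181 CPM in CAP (SD, n = 3). The log2 fold change was −0.37 with a standard error of 0.11, which gave an unadjusted p = 0.0140 and an adjusted p = 0.161 with edgeR. In the same test 21% of the 677 miRNAs had an unadjusted p under 0.05, and 14.3% were lower in CAP without overlap, so that miR-145a-5p, at rank 56 by p, was among many. None of the 677 (0%) passed the adjusted threshold of 0.05 with edgeR, against 142 at an unadjusted p under 0.05, and 0 passed with limma-voom. With DESeq2 29 of 445 (6.52%) passed, the 445 being only the names to which it gave an adjusted p. The study's own DESeq2 run called more miRNAs at this threshold. miR-145a-5p did not pass with DESeq2 here either (adjusted p = 0.133). Without CAP replicate 1 the log2 fold change was −0.35 (edgeR adjusted p = 0.167), and over all alternatives it lay between −0.48 and −0.22 with adjusted p-values of 0.133 to 0.358.

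mmu-miR-145a-3p, the minor arm, had rank 146. It was at 194, 169.5 and 209 CPM in the air libraries and at 176, 235 and 216 CPM in the CAP libraries. The lowest library was of the air group and the highest was CAP replicate 2. The means were 191 ± 19.9 CPM in air and 209 ± 30.1 CPM in CAP (SD, n = 3), with a log2 fold change of 0.13 (standard error 0.14, edgeR adjusted p = 0.605) and a 95% interval from −0.21 to 0.46. Under upper-quartile scaling the log2 fold change was 0.28. Of the 4 arms, 3 had a negative and 1 a positive log2 fold change, and 1 was without overlap between the groups, against 29% of all tested miRNAs in either direction.

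**Figure D1:**
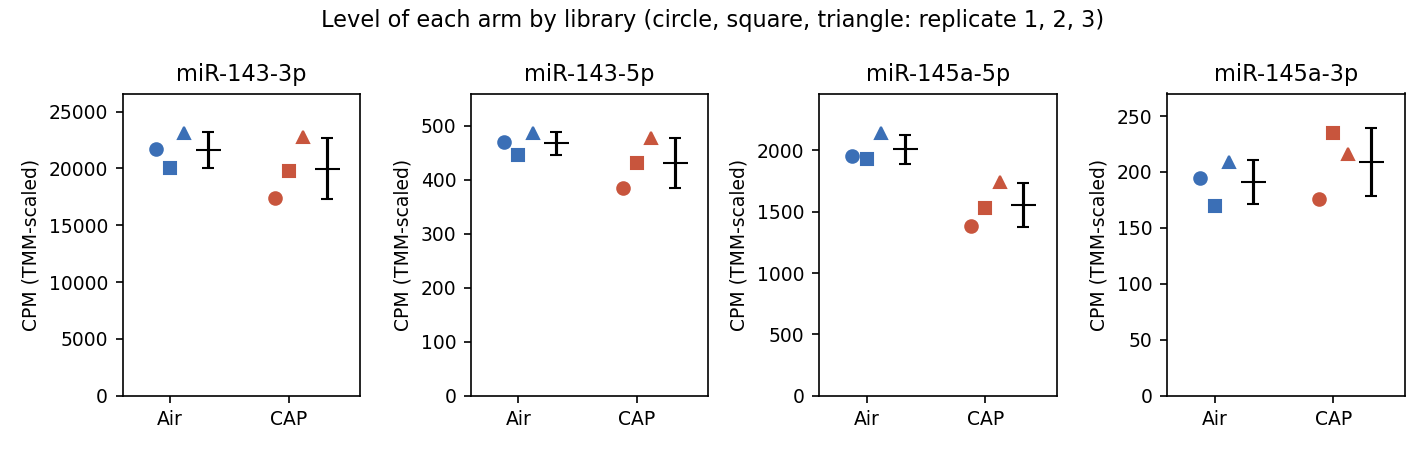
Level of each arm in CPM (y axis from 0) in the 3 air (blue) and 3 CAP (red) libraries, with the replicate shown by the symbol and the mean ± SD in black. miR-145a-5p alone separated the groups, at 1927 to 2142 CPM in air and 1384 to 1744 CPM in CAP.

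**Figure D2:**
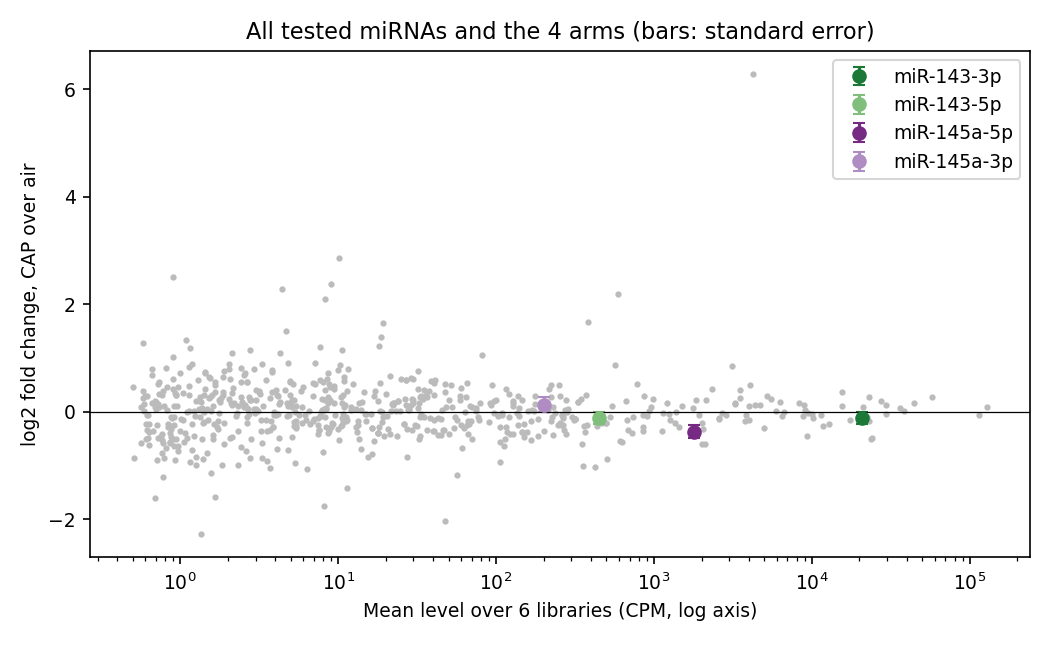
Log2 fold change of CAP over air (y axis) against the mean level over 6 libraries (x axis, log scale) for 677 tested miRNAs (grey), with the 4 arms in colour and their standard errors as bars. All 4 lay between −0.37 and 0.13, within the cloud of other miRNAs of their level.

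The cluster as a whole made up 1.94 to 2.55% of the counts of a library. Its share was 2.45 ± 0.158% in air and 2.20 ± 0.26% in CAP (SD, n = 3), a difference within the spread of the libraries (exact two-sided permutation p = 0.2). Of the reads of all 4 arms, miR-143-3p held 88.7 to 90.3%, miR-145a-5p 6.92 to 8.55%, miR-143-5p 1.87 to 1.98% and miR-145a-3p 0.752 to 1.07%. These proportions compare different miRNAs, whose ligation and amplification differ, and so do not give the molar ratio of the hairpins. Ratios were compared between libraries instead, since a fixed bias cancels there and since a ratio within a library does not depend on scaling.

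For each 100 reads of mir-143, both arms summed, there were 9.70, 10.25 and 9.95 reads of mir-145a in air replicates 1, 2 and 3. In CAP replicates 1, 2 and 3 there were 8.76, 8.74 and 8.43. The groups did not overlap, and the libraries of a group lay close together, at 9.97 ± 0.276 in air and 8.64 ± 0.182 in CAP (SD, n = 3). How often ratios of other pairs of hairpins were without overlap was not computed. The difference was −0.21 on the log2 scale with a standard error of 0.03, and the exact two-sided permutation p was 0.1, the smallest that 3 against 3 can give. With the major arms only, miR-145a-5p to miR-143-3p, the difference was −0.26 with a standard error of 0.03 (exact permutation p = 0.1). CAP replicate 1, which was lowest in the level of both major arms, did not stand out in this ratio, and without it the difference was −0.27.

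The minor arm went the other way. miR-145a-3p was at 0.897, 0.847 and 0.903 reads for each 100 reads of miR-143-3p in the air libraries and at 1.01, 1.19 and 0.948 reads in the CAP libraries. These values again did not overlap, with a difference of 0.24 on the log2 scale and a standard error of 0.10 (exact permutation p = 0.1). Of 6 ratios among the 4 arms and their sums, 5 were without overlap, each with an exact permutation p = 0.1 and an adjusted p = 0.12 over the 6. The ratios share the same counts and are not independent of each other. No share over such ratios of other miRNAs was computed to set beside this count. Separation was common elsewhere, in 29% of tested miRNAs by level and 38.7% of tested precursors by arm ratio. The exception was the ratio of the arms of mir-143 (exact permutation p = 0.8).

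Within mir-143 the minor arm held a nearly constant share of the reads. miR-143-5p made up 2.13, 2.18 and 2.06% in the air libraries and 2.16, 2.13 and 2.06% in the CAP libraries. The group means were 2.12 ± 0.058% and 2.11 ± 0.0518% (SD, n = 3). The Wilson 95% interval of air replicate 1, for counting error only, was 2.08 to 2.17%, against a range of 2.06 to 2.18% over all 6 libraries.

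Within mir-145a the share of the minor arm differed. miR-145a-3p made up 9.05, 8.08 and 8.88% of the reads in air replicates 1, 2 and 3. In CAP replicates 1, 2 and 3 it made up 11.3, 13.3 and 11.01%, so that every CAP library stood above every air library. The intervals of counting error reached up to 9.34% in air and down to 10.6% in CAP. The means were 8.67 ± 0.514% in air and 11.9 ± 1.25% in CAP (SD, n = 3), a difference of 3.19 percentage points (exact permutation p = 0.1). In reads, there were 10.1, 11.4 and 10.26 of miR-145a-5p for each read of miR-145a-3p in air and 7.87, 6.53 and 8.09 in CAP.

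**Figure D3:**
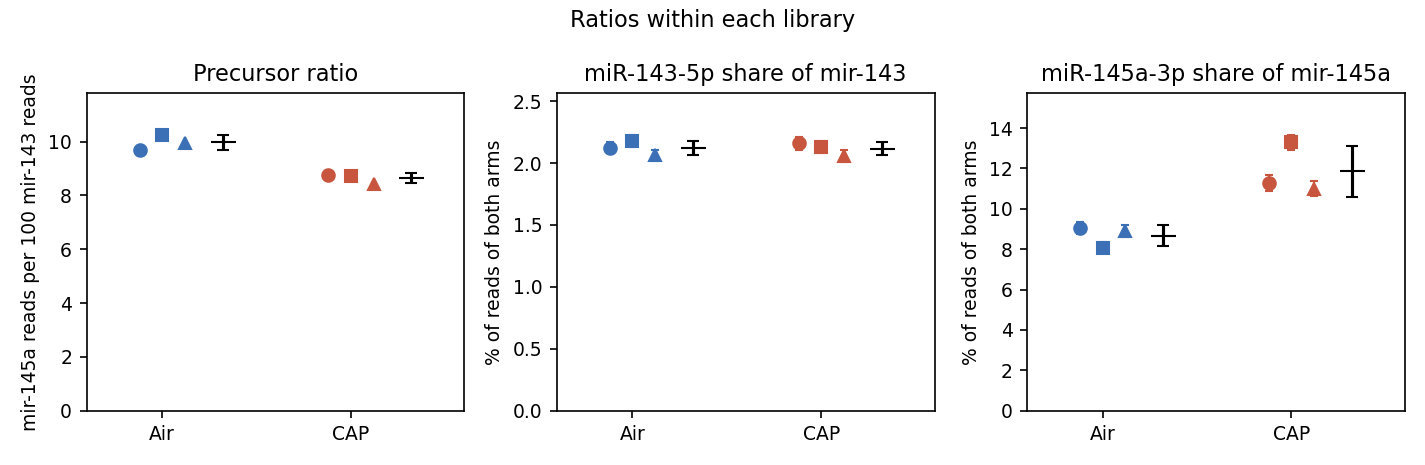
Ratios within each air (blue) and CAP (red) library, all y axes from 0: reads of mir-145a for each 100 of mir-143, and the share of the minor arm in each hairpin in percent with its Wilson 95% interval as coloured bars; black marks show the mean ± SD. The share of miR-143-5p stayed between 2.06 and 2.18%, and that of miR-145a-3p was 8.08 to 9.05% in air and 11.01 to 13.3% in CAP.

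The arm ratio was also fitted over all 230 precursors whose arms both passed the expression filter, with limma on the log2 ratio of 5p to 3p counts. For mir-143 the difference between CAP and air was −0.0042 with a standard error of 0.10 (adjusted p = 0.990). For mir-145a it was −0.50 with a standard error of 0.13, an unadjusted p = 0.00847 and an adjusted p = 0.0609, which did not pass. In this fit 3.04% of precursors passed the adjusted threshold, 30.4% had an unadjusted p under 0.05 and 38.7% were without overlap between the groups, so that a shift in arm ratio was not particular to mir-145a, whose p had rank 32. The minor arm was the higher in share in CAP for 123 precursors and the lower for 107. The call for mir-145a differed between fits. With no filter on low counts it did not pass (adjusted p = 0.380). In a pair of fits chosen after the data had been seen it passed, with an adjusted p = 0.0297 where the prior spread followed the mean level (13.5% of precursors called) and 0.0158 among the 112 precursors with both arms at a mean of at least 10 CPM (24.1% called). Without CAP replicate 2, the library with the largest share of miR-145a-3p, the difference was −0.40 (limma adjusted p = 0.141), and without CAP replicate 1 it was −0.54 (adjusted p = 0.0869).

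**Figure D4:**
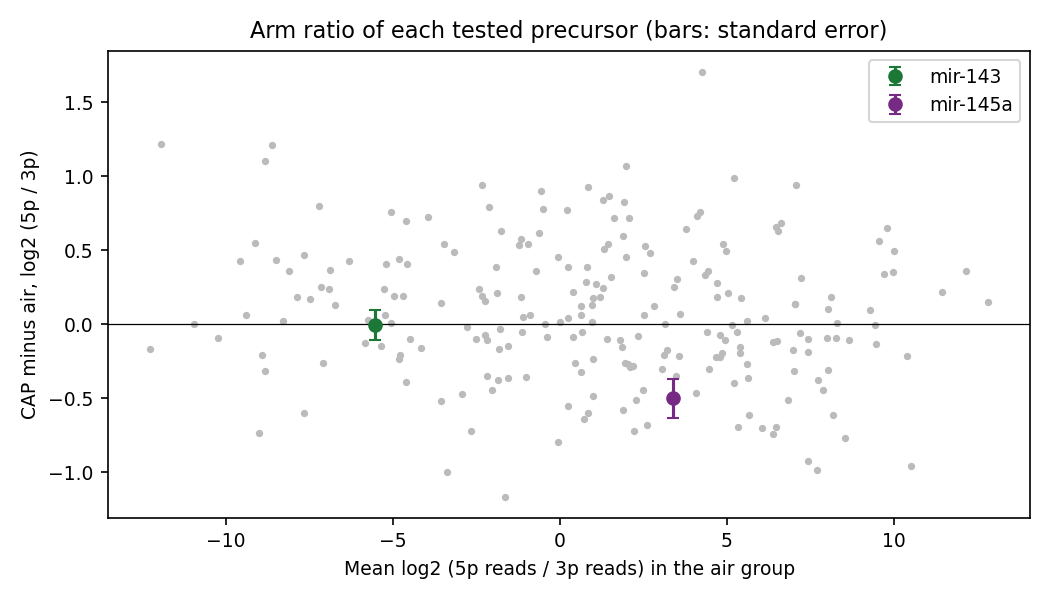
Difference between CAP and air in the log2 ratio of 5p to 3p reads (y axis) against the same ratio in the air group (x axis) for 230 precursors (grey), with mir-143 and mir-145a in colour and their standard errors as bars. mir-143 lay at −0.0042 and mir-145a at −0.50.

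A further mouse name, miR-145b, belongs to a separate hairpin on chromosome 18 (69022199 to 69022273). It was scarce, at 7.91, 7.04 and 7.07 CPM in the air libraries and 5.63, 5.54 and 8.51 CPM in the CAP libraries. The groups overlapped, and no member of the cluster had the same counts as another name in the table.

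Other miRNAs of the cells and pathways in which the cluster is known were described beside it. All 5 lists were chosen with earlier results of these data known, so their counts and medians are descriptions only. Some members of a list, such as miR-214-3p and miR-214-5p, are arms of the same hairpin and are not independent. Of 12 stromal miRNAs, 10 were lower and 2 higher in CAP, with a median log2 fold change of −0.37 against 0.00 for all 677. None passed edgeR's adjusted threshold, 4 were lower at an unadjusted p under 0.05 (9.45% of all miRNAs were), and 4 were lower without overlap (14.3% of all). Without CAP replicate 1 the counts were 11 lower and 1 higher, with a median of −0.44 against −0.066 for all 699 then tested. With all libraries, those lower without overlap included miR-214-3p, expressed from the antisense transcript Dnm3os in mesenchymal cells, which was at 497 to 669 CPM in air and 208 to 354 CPM in CAP. miR-708-5p was at 57.3 to 112 CPM in air and 23.9 to 39.98 CPM in CAP, and miR-99a-5p at 699 to 806 CPM and 380 to 578 CPM. The study itself had called miR-214-3p and miR-708-5p lower in CAP with DESeq2. The summed level of the list, most of which is miR-125b-5p, was 156567 to 180071 CPM in air and 134731 to 198364 CPM in CAP and overlapped. miR-145a-5p, at −0.37, lay close to the median of this list, and both miR-143 arms and miR-145a-3p lay above it. The part of stromal content in the level of miR-145a-5p was not tested.

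Of 8 striated muscle miRNAs, several of which are also driven by serum response factor, 5 were tested, 1 higher and 4 lower in CAP with a median log2 fold change of −0.16, and 0 passed the adjusted threshold of edgeR against 1 at an unadjusted p under 0.05 (21% of all miRNAs in either direction). That was miR-499-5p, encoded in a myosin gene, at 4.56 to 5.69 CPM in air and 1.495 to 3.71 CPM in CAP. miR-1a-3p was at 69.8 to 170.1 CPM and 85.3 to 186 CPM, and miR-133b-3p at 0.859 to 12.1 CPM and 1.22 to 3.996 CPM, the groups overlapping for both. Without CAP replicate 1, 3 of the 5 were higher and the median was 0.030.

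Of 9 miRNAs linked to p53, which in human cells is known to favour the processing of mir-143 and mir-145 hairpins, 7 were lower and 2 higher, with a median of −0.38. None passed with edgeR (4 lower, where 9.45% of all miRNAs were, and 1 higher at an unadjusted p under 0.05). Without CAP replicate 1 the counts were 8 lower and 1 higher, with a median of −0.51. miR-34b-5p was at 637 to 678 CPM in air and 272 to 419 CPM in CAP, miR-34c-5p at 2331 to 2632 CPM and 1295 to 1818 CPM, and miR-34b-3p at 125 to 144 CPM and 83.9 to 113 CPM, each lower without overlap, as were 14.3% of all miRNAs. The 4 of the list that were lower without overlap were all arms of mir-34b or mir-34c. miR-34a-5p, the most abundant of the list, was at 22022 to 24472 CPM in air and 19840 to 23875 CPM in CAP and overlapped. miR-107-3p overlapped too, at 905 to 954 CPM and 843 to 928 CPM. The level of miR-192-5p was 2438 CPM for CAP replicate 1 alone, while the other CAP libraries had 236 and 242 CPM and the air libraries 189.6 to 226 CPM. That of miR-194-5p was 1414 CPM for the same library, while the other CAP libraries had 165 and 171 CPM.

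Of 7 endothelial miRNAs 5 were lower with a median of −0.12, and of 10 haematopoietic miRNAs 8 were higher with a median of 0.24, and 0 in each list passed edgeR's adjusted threshold. At an unadjusted p under 0.05, 1 endothelial miRNA was higher and 1 lower, and 2 haematopoietic miRNAs were higher and 1 lower, against 21% of all miRNAs in either direction. Without CAP replicate 1 the endothelial list still had 5 lower, with a median of −0.20, while the haematopoietic list had 5 higher and 5 lower, with a median of −0.014. In the endothelial list miR-27b-3p was at 12623 to 14189 CPM in air and 16671 to 18304 CPM in CAP, miR-132-3p at 67.6 to 87.1 CPM and 53.1 to 59.5 CPM, and miR-222-3p at 1115 to 1203 CPM and 1192 to 1398 CPM. In the haematopoietic list miR-155-5p, which activated macrophages induce, was at 603 to 684 CPM in air and 812 to 1126 CPM in CAP. miR-181a-5p was at 393 to 444 CPM and 299.8 to 340.2 CPM, and miR-342-3p at 3163 to 3635 CPM and 3559 to 5911 CPM. The red-cell miRNAs of this list were high in CAP replicate 1 alone. miR-451a was at 32.9 CPM there, against 5.70 and 4.88 CPM in CAP replicates 2 and 3 and 4.85 to 9.63 CPM in air. miR-144-3p was at 30.7 CPM there, against 4.49 and 8.88 CPM and 5.88 to 12.3 CPM. The summed level of the haematopoietic list was 61653 to 75702 CPM in air and 64796 to 82706 CPM in CAP, and the part of blood-cell content in the level of the cluster was not tested.

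**Figure D5:**
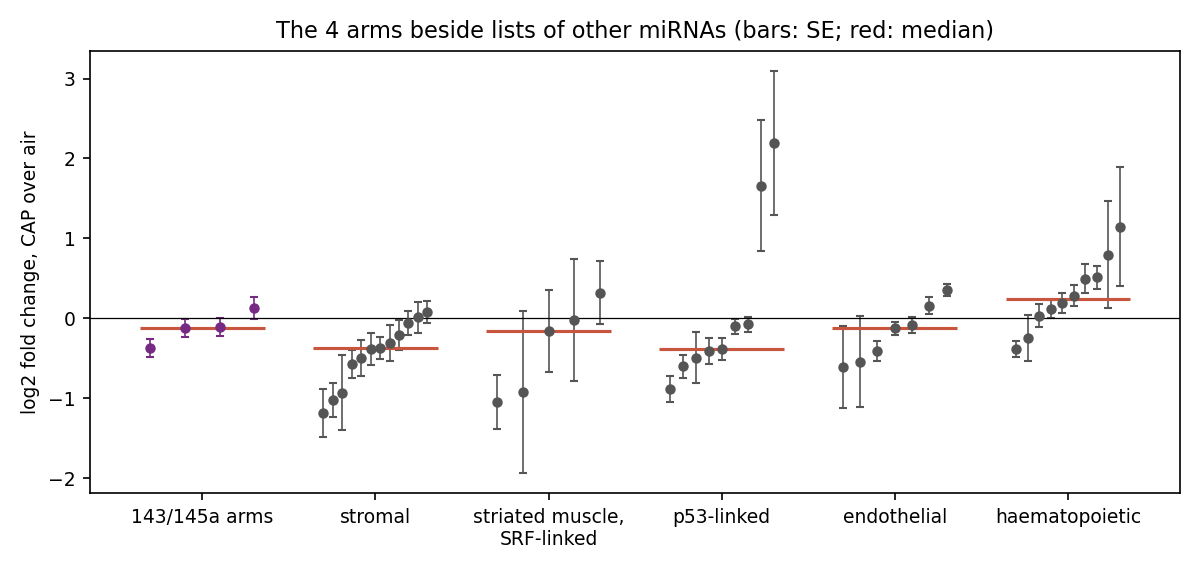
Log2 fold change of CAP over air (y axis, bars: standard error) for the 4 arms (purple) and the tested members of 5 lists (grey), with each median in red. The stromal median was −0.37, close to the value of miR-145a-5p, and the haematopoietic median 0.24. The lists were chosen with earlier results of these data known.

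The miRNAs whose levels followed the major arms most closely were found by the standard deviation, over the 6 libraries, of the log2 ratio to that arm, among 355 other miRNAs with a mean of at least 10 CPM. Closest to miR-143-3p was its own partner arm miR-143-5p, with a standard deviation of 0.034. miR-125a-5p (0.057), miR-331-3p (0.064), miR-34a-5p (0.067) and let-7e-5p (0.073) came next, against a median of 0.27 over all 355. miR-145a-5p came at rank 35 with 0.15, and miR-145a-3p at rank 51 with 0.17. The levels of the major arms of the neighbouring hairpins were therefore not the closest pair in these libraries.

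For miR-145a-5p the closest were miR-130a-3p (0.075), miR-296-5p (0.097), miR-574-3p (0.098), miR-872-5p (0.12) and let-7b-5p (0.13). miR-143-5p was at rank 10 and miR-143-3p at rank 11 with 0.15, and the other arm of its own hairpin, miR-145a-3p, at rank 172 of 355 with 0.30, close to the median of 0.31. A miRNA with the same level in every library would have 0.153 to miR-143-3p and 0.237 to miR-145a-5p, the standard deviations of these arms themselves. The miRNAs named as closest to each arm lay below its value. miR-145a-5p, at 0.145 to miR-143-3p, was hardly closer than such an unvarying miRNA, and miR-145a-3p, at 0.172, was no closer. Set against the 0.237 of miR-145a-5p, the same 0.145 was lower. It includes the difference between the groups. The log2 ratio of miR-145a-5p to miR-143-3p was −3.47, −3.38 and −3.43 in air replicates 1, 2 and 3. In CAP replicates 1, 2 and 3 it was −3.65, −3.69 and −3.71, so that within a group the major arms stayed close together. Likeness in level is a description of 6 libraries.

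The mature sequences of the closest of these miRNAs are shown so that the miRNAs most like each arm in level can be compared with each other by seed, the stretch from base 2 to base 8 that pairs with targets, here in capitals. These 7 are from RefSeq on GRCm38.p6.
miR-125a-5p: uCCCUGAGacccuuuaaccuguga
miR-331-3p: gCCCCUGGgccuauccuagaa
miR-34a-5p: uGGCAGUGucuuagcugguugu
miR-130a-3p: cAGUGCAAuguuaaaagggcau
miR-296-5p: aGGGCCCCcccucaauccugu
miR-574-3p: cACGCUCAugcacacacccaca
miR-872-5p: aAGGUUACuuguuaguucagg
The first 3 were closest to miR-143-3p and the other 4 to miR-145a-5p. They had 7 different seeds, so that no pair among them shared one, and they lie on chromosomes 17, 10, 4, 2, 2, 5 and 4 in the order shown. The named miRNAs at rank 5, let-7e-5p for miR-143-3p and let-7b-5p for miR-145a-5p, are both let-7 miRNAs by name. Their seeds were not compared, so the lack of a shared seed holds for the 7 shown only.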

How the data were processed

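The authors deposited raw read counts, not normalised, with 1 row for every combination of mature miRNA and hairpin and 1 column for every library. According to the study's methods, reads of QIAseq libraries were trimmed with Trimmomatic and mapped to mm10 by bowtie within mirDeep2, with miRBase as the reference for quantification. No source states whether reads were collapsed by their molecular identifiers, so intervals cover counting error only. A read could be counted at several hairpins, and of repeated rows for a mature name only that with most counts was used.

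Groups came from the sample titles. Counts were fitted with edgeR 4.0.16 in R 4.3.3 (TMM, default expression filter, quasi-likelihood test on group, Benjamini–Hochberg adjustment over 677 miRNAs, all 4 members included). Standard errors were derived from the F statistic. Arm ratios were fitted with limma 3.58.1 on log2 ratios of counts plus 0.5, for each pair of arms once. Ratios of single libraries were compared by two-sided exact permutation (scipy 1.17.1). DESeq2 1.42.0, the tool of the study, was run as an alternative, on names with at least 10 counts in all. Of these, only names to which it gave an adjusted p were counted as tested. Scripts were tested on simulated counts.

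The members, the 5 lists and the rules for naming miRNAs were chosen with earlier results of these data known. The rules named the 4 members, the 5 miRNAs closest to each major arm and, in each list, the 3 with the smallest p. Some of those named from the lists, miR-214-3p, miR-708-5p, miR-34b-5p and miR-499-5p, had been called lower in CAP by the study. Replicates of a group differed by more than sampling noise (chi-square per degree of freedom of at least 67.6), so all were kept. The study gives 3 mice for each group, and p-values measure the spread between these libraries.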

Additional observations from a re-analysis of the deposited data

How the results depend on the processing

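In every alternative run, miR-145a-5p stayed lower and miR-145a-3p higher in CAP, and no member passed the adjusted threshold. Under upper-quartile scaling the log2 fold change of miR-143-3p was 0.035 and that of miR-143-5p 0.029, in place of −0.11 and −0.12, and that of miR-145a-3p 0.28 in place of 0.13. With CAP replicate 1 left out, the edgeR log2 fold change was −0.075 for miR-143-3p, −0.096 for miR-143-5p and 0.18 for miR-145a-3p. Lists without CAP replicate 1 were added after the data had been seen. Leaving out each library in turn gave −0.23 to −0.070 for miR-143-3p, −0.22 to −0.096 for miR-143-5p, −0.48 to −0.33 for miR-145a-5p and 0.022 to 0.19 for miR-145a-3p. It gave −0.23 to −0.19 for the log2 ratio of mir-145a to mir-143, −0.56 to −0.40 for the log2 arm ratio of mir-145a and −0.025 to 0.016 for that of mir-143. That last value had no stable sign, being 0.015 without air replicate 2 and 0.016 without CAP replicate 3. For mir-145a the arm ratio difference was −0.50 with a prior spread following the mean level and with both arms at a mean of at least 10 CPM, among 112 precursors, and it passed in both. Among all precursors 7 passed with the settings of the report, 20 with a pseudocount of 5, 1 with no filter on low counts, 31 with a prior spread following the mean level, 27 with both arms at a mean of at least 10 CPM, and 0 to 7 without each library. Among all miRNAs 0 passed with edgeR, 13 with no filter, 29 with DESeq2 and 0 without each library, and 90 to 155 had an unadjusted p under 0.05 without each library. With the replicate block, miR-145a-5p was at −0.38 (edgeR adjusted p = 0.145) and the ratio of the hairpins at −0.21, and no call for a member was altered. Replicate numbers are those of the sample titles. The column headers number some libraries otherwise, and pairs by those numbers were not examined. By the titles, deviations of same-numbered libraries from their group means had correlations of 0.021, −0.022 and 0.14, so the numbers were not taken as pairs. The causes of these differences were not tested. With 3 libraries a group, an exact test of a single ratio could not pass 0.05.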
